A study of Mus musculus with 2 samples.

Results

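The genes described here are 35 established transcriptional targets of p53, taken by their listed symbols from the 32589 genes of the deposited count files, in which each symbol occurred once. They were grouped by role into 14 genes of cell death and its control, 8 of the cell cycle, spindle and RNA control, 8 of metabolism and stress signalling, and 5 of DNA repair. The counts come from mouse hearts 6 weeks after transverse aortic constriction (TAC), an operation that narrows the aorta and so raises the pressure against which the left ventricle pumps. Hypertrophied left ventricles of 3 hearts were mixed into each sample, and each group has 1 library. One library is labelled as wild-type mice and the other as p53 knockout mice. Both groups underwent TAC. The strain, sex and age of the mice, the deleted exons, and hearts without surgery are not given in the sources used here.

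p53 (gene symbol Trp53) is a transcription factor that is held at a low level by the ubiquitin ligase Mdm2 and accumulates after DNA damage and other stress. It binds response elements near its targets, which act in apoptosis, arrest of the cell cycle, restraint of growth signalling and repair of DNA. Many of these targets are also driven by other factors, among them FOXO proteins, the glucocorticoid receptor and the integrated stress response, so their RNA does not depend on p53 alone.

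The sequences that follow lie just ahead of the annotated starts of 5 targets whose values are described below. They show where the consensus of a single p53 half-site occurs, a decamer that is only a part of the full response element. Promoter windows of 300 bases (250 before to 50 after the start) from RefSeq on GRCm38.p6 were found for 27 of the 35 targets. The half-site consensus of 10 letters reads the same on both strands and was searched by exact match. It occurred in the windows of 8 of these 27 targets (29.6%) and in those of 9.55% of 27025 genes. Each line gives 30 bases 5′ to 3′ on the strand of the gene, with the decamer in capitals. They lie at chr11:40755452-40755481 on the minus strand for Ccng1, chr7:45467080-45467109 on the minus strand for Bax, chr7:78895927-78895956 on the plus strand for Aen, chr10:41887256-41887285 on the plus strand for Sesn1 and chr13:96519399-96519428 on the minus strand for Polk. The windows of Ccng1 and Bax lie upstream of the gene in GENCODE vM21, whereas those of Aen, Sesn1 and Polk lie within it. A match describes letters in a window and does not show that p53 binds there.
Ccng1: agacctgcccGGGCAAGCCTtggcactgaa
Bax: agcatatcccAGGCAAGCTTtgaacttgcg
Aen: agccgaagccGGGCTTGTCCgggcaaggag
Sesn1: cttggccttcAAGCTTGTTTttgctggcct
Polk: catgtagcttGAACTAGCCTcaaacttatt

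After filtering, the library labelled wild-type held 14764 cells and the library labelled p53 knockout held 9298. Their cells had a median of 937 and 1567 unique molecular identifiers (UMIs, counted RNA molecules). A total of 105 cell barcodes occurred in both libraries. The labels give the cell type as cardiomyocytes, but cardiomyocyte-like cells made up 34.1% and 9.53% of the kept cells, beside classes like macrophages, fibroblasts, endocardium and vascular endothelium. Trp53 itself stood at 38.7 CPM (counts scaled to 1000000 nuclear-encoded UMIs) where the label is wild-type and at 55.0 CPM where it is p53 knockout, so its RNA does not check the label. Its log2 ratio lay between -0.08 and 0.19 in 4 of the 5 largest classes and was 1.01 in endocardial-like cells. Counts near the 3' end may lie outside the deleted part. The RNA of Xist, made from the inactive X chromosome of females, was at 2.37 and 929 CPM and that of 4 Y-linked genes at 541 and 7.34 CPM, so sex and label cannot be told apart. Markers of cardiomyocytes, summed over 10 genes, were also found in the other classes, at 8205 to 9903 CPM under the wild-type label and 1814 to 2253 CPM under the other, which measures RNA from other cells in each class. Most cells of the fibroblast-like class fell into different clusters in the 2 libraries (in cluster 1 for 3133 of 3243 cells under the wild-type label, in cluster 4 for 1890 of 2104 under the other). Ratios over that class therefore compare mostly different clusters.

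With 1 library per group no difference could be tested, and "higher" and "lower" refer to the library labelled p53 knockout against the library labelled wild-type. Levels are CPM summed over the cells of a class, followed in brackets by the exact Poisson 95% interval. Differences are log2 ratios with 0.5 UMI added to each sum, followed by the exact conditional binomial 95% interval. These intervals cover counting error only and not the spread between animals. A target counted as measured in a class with at least 20 UMIs over both libraries, and as past 2-fold with a log2 ratio of at least 1 or at most -1. Pmaip1, Psrc1 and Gdf15 passed this minimum mainly through the library labelled p53 knockout, so their higher ratios are not independent of the filter. The same holds for other sparse targets, among them Pidd1 in endocardial-like cells and Ckap2 and Gadd45a in macrophage-like cells. Eda2r in cardiomyocyte-like cells passed mainly through the library labelled wild-type, so its lower ratio there is not independent either. The counts past 2-fold below include these ratios. Levels are not per length and are not compared between genes.

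The targets did not move in a single direction. Over all kept cells 10 of the 35 targets were at least 2-fold higher and 0 at least 2-fold lower, while 12.0% of all 18696 measured genes were at least 2-fold higher and 10.9% at least 2-fold lower. That sum also carries the change in the make-up of the cells, so the classes were taken one at a time. In cardiomyocyte-like cells 3 of 32 measured targets were at least 2-fold higher (Bbc3, Perp and Gdf15) and 2 at least 2-fold lower (Fas and Eda2r), against 4.35% higher and 15.6% lower over all genes. In fibroblast-like cells 6 of 33 targets were past 2-fold higher (Phlda3, Plk3, Psrc1, Ckap2, Sesn2 and Ddit4) and 1 lower (Sesn3), against 6.85% and 11.5% of all genes. Vascular endothelial-like cells had 5 of 30 targets past 2-fold higher (Tnfrsf10b, Phlda3, Plk2, Zmat3 and Ddit4) and 2 lower (Eda2r and Triap1), against 6.16% and 12.3%. Endocardial-like cells had 5 of 33 higher (Tnfrsf10b, Pidd1, Plk2, Sesn2 and Gdf15) and 1 lower (Polk), against 6.55% and 10.9%. Macrophage-like cells had 8 of 31 higher (Bax, Pmaip1, Gadd45a, Plk3, Ckap2, Sesn2, Ddit4 and Gdf15) and 2 lower (Sesn3 and Rrm2b), against 9.24% and 11.9%.

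The medians lay near 0. In cardiomyocyte-like cells the median log2 ratio was -0.10 over the measured targets and -0.26 over all genes. It was 0.22 against -0.11 in fibroblast-like cells and 0.02 against -0.09 in vascular endothelial-like cells. Endocardial-like cells gave 0.05 against -0.11, and macrophage-like cells 0.14 against -0.05. Of the 27 targets measured in all 5 classes, 4 were lower in all 5 (Sesn3, Tigar, Rrm2b and Polk, 14.8%, against 23.5% of 10638 genes) and 6 were higher in all 5 (Bax, Bbc3, Aen, Phlda3, Gadd45a and Ddit4, 22.2%, against 12.4%). The other 17 went in both directions. Several of these ratios lay near 0. Of the 10 targets with a single direction, Bax, Bbc3 and Polk kept it in all 5 classes under every alternative processing tried, while Tigar turned in 3 classes, Phlda3, Gadd45a and Rrm2b in 2, and Aen, Ddit4 and Sesn3 in 1. A 1.5-fold or larger difference in at least 4 classes was found for 2 targets on the lower side (Ccng1 and Sesn3, against 10.0% of genes) and 4 on the higher side (Bbc3, Aen, Phlda3 and Ddit4, against 4.0%).

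**Figure D1:**
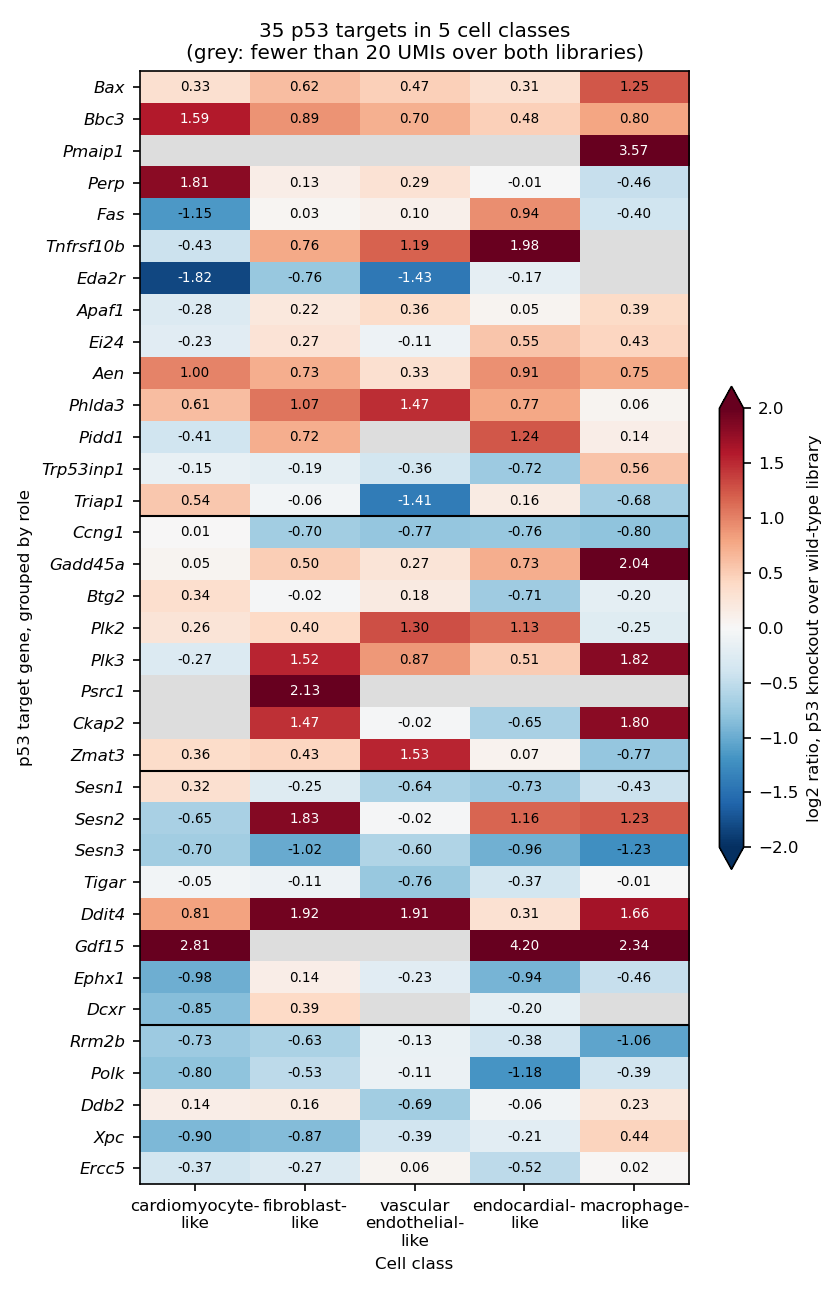
Log2 ratio of each p53 target, p53 knockout library over wild-type library, by cell class; rows are grouped by role and grey cells had fewer than 20 UMIs over both libraries. Sesn3 was lower in all 5 classes and Bbc3 higher in all 5.

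**Figure D2:**
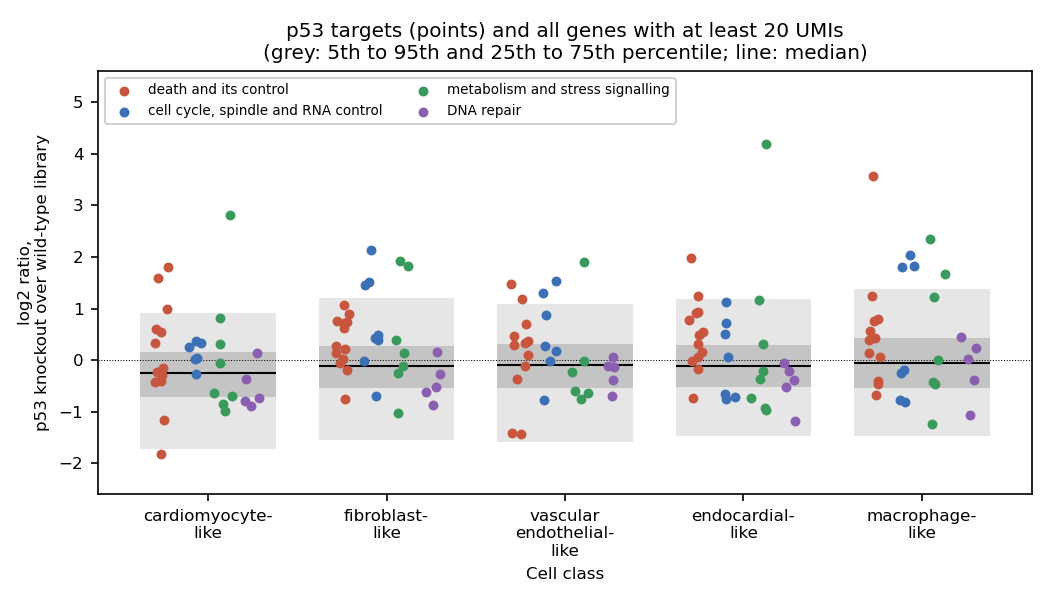
Each point is 1 measured target, coloured by role; the y axis is the log2 ratio and the grey bands give the 5th to 95th and 25th to 75th percentile of all genes measured in the class. Most targets lie inside the wide band in all 5 classes, and the points outside it lie mostly above it.

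Among the genes that execute cell death, Bax and Bbc3, whose proteins act at mitochondria, were higher in all 5 classes. Pmaip1, which also acts there, was measured in 1 class alone. Bax, whose protein forms pores in the outer mitochondrial membrane, had 480 UMIs (29.2 CPM) under the wild-type label against 876 UMIs (47.3 CPM) under the other over all kept cells. Its largest difference was in macrophage-like cells, with 41 UMIs (39.4 CPM, 28.3 to 53.4) against 157 UMIs (94.3 CPM, 80.1 to 110), giving a log2 ratio of 1.25 (0.76 to 1.79). In fibroblast-like cells Bax was at 30.3 CPM (24.8 to 36.6) against 46.6 CPM (40.4 to 53.4), and the ratios in cardiomyocyte-like, vascular endothelial-like and endocardial-like cells were 0.33, 0.47 and 0.31. The Poisson intervals of the 2 libraries did not overlap in macrophage-like and fibroblast-like cells and overlapped in the remaining 3 classes. Within fibroblast cluster 1 Bax was at 30.2 CPM (24.6 to 36.6, 102 UMIs) against 24.3 CPM (8.90 to 52.8, 6 UMIs). Within fibroblast cluster 4 it was at 31.9 CPM (10.4 to 74.5, 5 UMIs) against 47.9 CPM (41.5 to 55.1, 199 UMIs). An exon of Bax overlaps the annotated gene Gm45808 on the same strand, so reads of the pair may be split.

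Bbc3 (Puma) and Pmaip1 (Noxa) encode small proteins that release Bax from its inhibitors. Bbc3 had 132 UMIs (8.04 CPM) against 308 UMIs (16.6 CPM) over all kept cells. In cardiomyocyte-like cells it was at 3.63 CPM (2.30 to 5.45, 23 UMIs) against 10.9 CPM (7.07 to 16.1, 25 UMIs), giving a log2 ratio of 1.59. The difference was uneven over the cardiomyocyte-like clusters described below. Bbc3 had 5 and 9 UMIs in cluster 2 (2.44 against 60.4 CPM), 14 and 0 in cluster 6, and 4 and 9 in cluster 7. Cluster 15 of the library labelled p53 knockout was at 4.97 CPM (7 UMIs). The ratio of Bbc3 was 0.80 in macrophage-like cells, 0.48 in endocardial-like cells, 0.89 in fibroblast-like cells and 0.70 in vascular endothelial-like cells. Pmaip1 was rare, with 10 UMIs (0.609 CPM) against 59 UMIs (3.19 CPM), and was measured in macrophage-like cells alone, where 1 UMI stood against 28 UMIs, giving a log2 ratio of 3.57 (1.53 to 9.48). That class also differed in neutrophil markers, whose 9 genes summed to 111 CPM against 445 CPM, with 2 and 1 of them at 0. Without cells holding at least 2 UMIs of these markers (23 and 108 cells), the ratio of Pmaip1 was 3.57 and that of Bax 1.18.

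The receptors of the death pathway differed from class to class. Fas, the receptor of Fas ligand, had 996 UMIs (60.6 CPM) against 1388 UMIs (74.9 CPM) over all kept cells. In cardiomyocyte-like cells Fas was lower, at 39.3 CPM (34.6 to 44.5, 249 UMIs) against 17.5 CPM (12.5 to 23.8, 40 UMIs), giving a log2 ratio of -1.15 (-1.69 to -0.68). Endocardial-like cells showed the opposite, with 52.3 CPM (42.3 to 64.0, 95 UMIs) against 100.5 CPM (91.0 to 111, 407 UMIs), a ratio of 0.94 (0.62 to 1.28). Vascular endothelial-like cells, in which Fas had its highest level in both libraries, were at 159 CPM (143 to 175) against 170 CPM (156 to 185), and their intervals overlapped. Fibroblast-like cells were at 50.9 against 52.0 CPM and macrophage-like cells at 44.2 against 33.6 CPM, again with overlapping intervals.

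The endocardial difference in Fas went with a cluster that the library labelled wild-type hardly held. Endocardial-like cells fell into cluster 3, with 1626 and 630 cells, and cluster 8, with 16 and 1123 cells. Within cluster 3 Fas was at 50.9 CPM (40.9 to 62.4) against 39.5 CPM (27.8 to 54.5), giving a log2 ratio of -0.35. In cluster 8 of the library labelled p53 knockout it was at 119 CPM (107 to 132). A state present in 1 library and an effect of the label on that state cannot be told apart.

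Tnfrsf10b, the mouse receptor of the death ligand TRAIL, had 97 UMIs (5.91 CPM) against 297 UMIs (16.0 CPM). It was higher in endocardial-like cells, at 4.96 CPM (2.27 to 9.41, 9 UMIs) against 20.5 CPM (16.3 to 25.4, 83 UMIs), giving a log2 ratio of 1.98, and the ratio within cluster 3 was 1.82. In vascular endothelial-like cells Tnfrsf10b was at 18.1 CPM (13.2 to 24.3) against 41.6 CPM (34.8 to 49.2), a ratio of 1.19, and 1.36 within cluster 0, which holds 2692 and 1429 of the cells. Its ratio was 0.76 in fibroblast-like cells and -0.43 in cardiomyocyte-like cells, with 41 and 25 UMIs in all, and turned to -0.40 in fibroblast-like cells when clusters were made at resolution 2. Macrophage-like cells held 0 and 3 UMIs of Tnfrsf10b. Eda2r, the receptor of ectodysplasin A on the X chromosome, went the other way, with 245 UMIs (14.9 CPM) against 192 UMIs (10.4 CPM). In vascular endothelial-like cells Eda2r was at 41.6 CPM (33.9 to 50.6, 101 UMIs) against 15.4 CPM (11.4 to 20.3, 50 UMIs), a ratio of -1.43, and in fibroblast-like cells at 18.1 against 10.7 CPM, a ratio of -0.76. In cardiomyocyte-like cells 24 UMIs of Eda2r stood against 2 UMIs, a ratio of -1.82 (-5.24 to -0.11), and in endocardial-like cells the ratio was -0.17. Macrophage-like cells held 7 and 4 UMIs of Eda2r.

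Perp, a membrane protein of desmosomes that also takes part in apoptosis, was the target with the largest difference in cardiomyocyte-like cells among those with at least 50 UMIs there. It had 315 UMIs (19.2 CPM) against 525 UMIs (28.3 CPM) over all kept cells. In cardiomyocyte-like cells Perp was at 24.1 CPM (20.5 to 28.3, 153 UMIs) against 84.7 CPM (73.2 to 97.6, 194 UMIs), 3.51-fold higher. In endocardial-like cells it stood at 46.8 against 46.7 CPM, a ratio of -0.01. The ratios of Perp in fibroblast-like, vascular endothelial-like and macrophage-like cells were 0.13, 0.29 and -0.46, from 71, 53 and 26 UMIs over both libraries.

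Aen and Phlda3 were above 0 in all 5 classes, with some ratios that turned under other processing. Aen, a nuclease that takes part in apoptosis, had 240 UMIs (14.6 CPM) against 514 UMIs (27.8 CPM), and its ratios were 0.997 in cardiomyocyte-like cells (10.1 against 20.1 CPM), just short of 2-fold, 0.75 in macrophage-like, 0.91 in endocardial-like, 0.73 in fibroblast-like and 0.33 in vascular endothelial-like cells. After thinning to 500 UMIs per cell the ratio of Aen in macrophage-like cells was -0.09. Perp and Phlda3 had the same value there, so it rests on few UMIs and gives no direction. Phlda3, which inhibits the kinase Akt, had 176 UMIs (10.7 CPM) against 481 UMIs (26.0 CPM). Its ratio was 1.07 in fibroblast-like cells (21.2 against 44.5 CPM) and 1.47 in vascular endothelial-like cells (7.83 against 22.2 CPM), but within vascular cluster 0 the latter was 0.60. Endocardial-like cells gave 0.77 for Phlda3, and 1.55 within cluster 3. In cardiomyocyte-like and macrophage-like cells it was 0.61 and 0.06. Without the mitochondria-rich cluster described below the former was -0.0025, and with estimated free RNA taken off the latter was -0.76.

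The remaining 5 death genes comprise 1 past 2-fold in vascular endothelial-like cells (Triap1), 1 past 2-fold in endocardial-like cells (Pidd1) and 3 that stayed within 2-fold. Apaf1, the scaffold of the apoptosome, had 1323 UMIs (80.6 CPM) against 2125 UMIs (115 CPM), with ratios from -0.28 in cardiomyocyte-like cells to 0.39 in macrophage-like cells. Its level was highest in macrophage-like cells, at 161 CPM (138 to 188) against 211 CPM (190 to 235). In fibroblast-like cells Apaf1 was at 108 against 125 CPM and in endocardial-like cells at 99.2 against 103 CPM. Ei24, a protein of the endoplasmic reticulum, had 721 UMIs (43.9 CPM) against 967 UMIs (52.2 CPM), with ratios from -0.23 to 0.55. Trp53inp1, a stress-induced regulator of autophagy and death, had 647 UMIs (39.4 CPM) against 697 UMIs (37.6 CPM) and was lower in 4 classes and higher in macrophage-like cells, from -0.72 to 0.56. Triap1, a small mitochondrial protein that restrains apoptosis, had 175 UMIs (10.7 CPM) against 178 UMIs (9.61 CPM). It was past 2-fold in vascular endothelial-like cells, at 19.8 CPM (14.6 to 26.2, 48 UMIs) against 7.39 CPM (4.73 to 11.0, 24 UMIs), a ratio of -1.41. Pidd1, the scaffold that activates caspase-2, had 50 UMIs (3.04 CPM) against 72 UMIs (3.89 CPM), and its ratio of 1.24 in endocardial-like cells rests on 3 and 18 UMIs. Within endocardial cluster 3 Pidd1 had 3 and 3 UMIs, a ratio of 0.93, and cluster 8 of the library labelled p53 knockout held 15 UMIs.

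**Figure D3:**
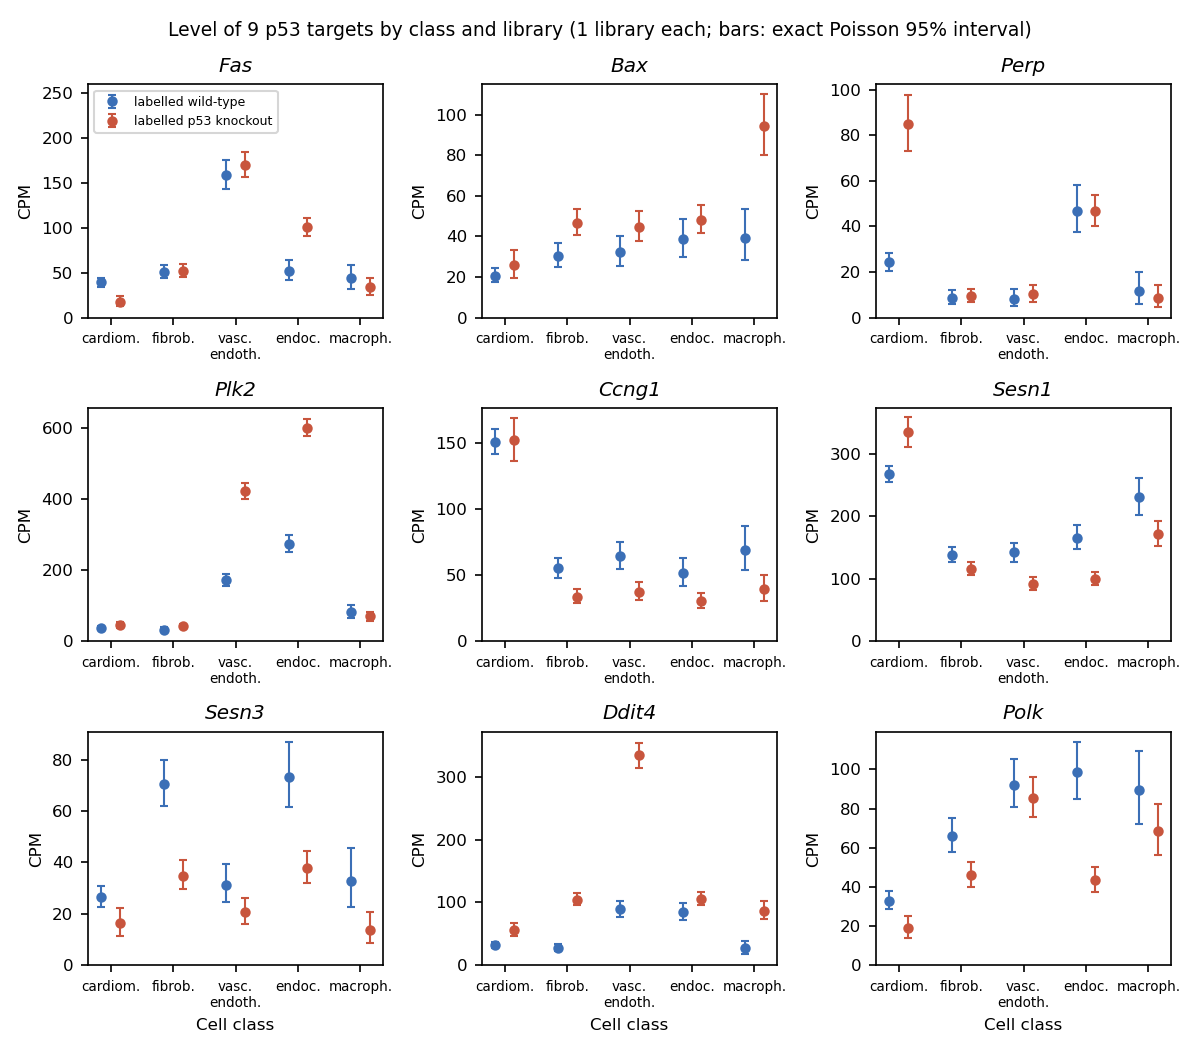
Level in CPM of 9 targets in the 5 classes, with the library labelled wild-type in blue and the library labelled p53 knockout in red; each point is 1 library and bars are exact Poisson 95% intervals. Sesn3 is lower in red in each class, Ddit4 is higher, and Fas and Sesn1 lie on different sides in different classes.

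Of the genes of the cell cycle, Ccng1, which encodes cyclin G1 and is a widely used readout of p53 activity, was lower in 4 of the 5 classes. It had 1557 UMIs (94.8 CPM) against 962 UMIs (51.9 CPM) over all kept cells, giving a log2 ratio of -0.87. In fibroblast-like cells Ccng1 was at 55.1 CPM (47.7 to 63.4) against 33.9 CPM (28.6 to 39.8), a ratio of -0.70 (-1.02 to -0.39). Vascular endothelial-like cells were at 64.3 CPM (54.6 to 75.2) against 37.6 CPM (31.2 to 44.8), a ratio of -0.77 (-1.13 to -0.42). Endocardial-like cells were at 51.8 against 30.6 CPM, a ratio of -0.76, and macrophage-like cells at 69.1 against 39.6 CPM, a ratio of -0.80. The intervals of the 2 libraries did not overlap in any of these 4 classes. Within endocardial cluster 3, however, Ccng1 was at 52.5 CPM (42.4 to 64.3) against 45.9 CPM (33.2 to 61.8), a ratio of -0.19, and in cluster 8 of the library labelled p53 knockout at 26.0 CPM. In endocardial-like cells of 500 to 1500 UMIs the ratio of Ccng1 was 0.05. Ccng1 was most abundant in cardiomyocyte-like cells, whose RNA was also present in the other classes. With estimated free RNA taken off, its ratio was -0.73 in macrophage-like, -0.47 in endocardial-like, -0.42 in fibroblast-like and -0.56 in vascular endothelial-like cells.

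In cardiomyocyte-like cells as a whole Ccng1 did not differ, with 958 UMIs (151 CPM, 142 to 161) against 349 UMIs (152 CPM, 137 to 169). These cells included a mitochondria-rich cluster 7, in which a median of 19.7% and 19.1% of UMIs were mitochondrial, with 851 and 315 cells. There Ccng1 stood at 416 CPM (372 to 463) against 454 CPM (400 to 513). Of all cardiomyocyte-like cells, this cluster held 16.9% under the wild-type label and 35.6% under the other. Without it, Ccng1 was at 114 CPM (105 to 123, 630 UMIs) against 53.9 CPM (43.5 to 66.0, 93 UMIs), a ratio of -1.07 (-1.40 to -0.76). Of the cells left in the library labelled p53 knockout, 305 of 571 were in cluster 15, of which the library labelled wild-type held 2 cells. In that cluster Ccng1 was at 51.1 CPM (40.0 to 64.3), whereas in the small shares of clusters 2 and 6 in the same library it was at 80.5 CPM (41.6 to 141) and 54.1 CPM (24.8 to 103), against 99.8 and 122 CPM in the library labelled wild-type. In cardiomyocyte-like cells of 500 to 1500 UMIs, which keep the mitochondria-rich cluster, the ratio of Ccng1 was 0.93.

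Other targets also moved when the mitochondria-rich cluster was left out. Perp was concentrated in it, at 78.6 CPM (60.2 to 101) against 241 CPM (202 to 285), and without it stood at 16.4 against 33.6 CPM, giving a log2 ratio of 1.04. Fas was at 38.2 against 12.8 CPM without the cluster, a ratio of -1.55, and Bax at 19.8 against 19.7 CPM, a ratio of 0.01. By cluster, the intervals of Fas overlapped in clusters 2, 6 and 7, and cluster 15, which the library labelled wild-type hardly held, stood at 9.22 CPM (4.91 to 15.8). Ddit4 had a ratio of 0.33 and Aen of 1.26. Over the 27 targets measured there, 3 were at least 2-fold higher (Bbc3, Perp and Aen) and 7 at least 2-fold lower (Fas, Eda2r, Triap1, Ccng1, Plk3, Ephx1 and Rrm2b), against 23.8% of all genes in either direction and 20.5% lower. The median was -0.19 for the targets and -0.36 for all genes. The cardiomyocyte-like class also differed in atrial markers, whose 7 genes summed to 61.1 CPM against 6474 CPM. With every cell removed that had any UMI of the atrial genes Bmp10, Myl7, Sbk2 or Sln, the ratio was 1.71 for Perp, -1.02 for Fas, 0.39 for Sesn1 and -0.01 for Ccng1.

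**Figure D4:**
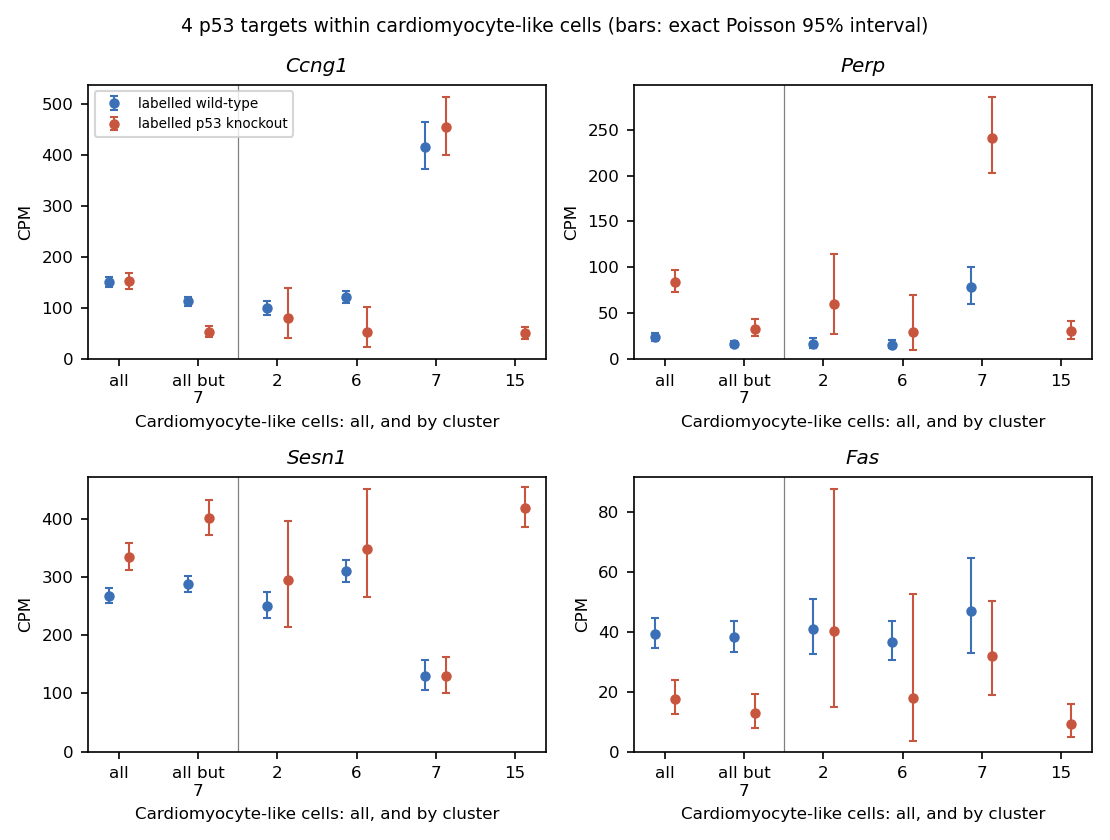
Level in CPM of 4 targets in cardiomyocyte-like cells, for all cells, for all but the mitochondria-rich cluster 7, and by cluster (a library with fewer than 50 cells in a cluster is not drawn); bars are exact Poisson 95% intervals. Ccng1 overlaps over all cells, at 151 and 152 CPM, and differs once cluster 7 is left out.

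Plk2, a polo-like kinase induced by stress, was the target with the most UMIs in both endothelial classes. It had 1405 UMIs (85.5 CPM) against 4455 UMIs (241 CPM) over all kept cells. In vascular endothelial-like cells Plk2 was at 172 CPM (156 to 189, 417 UMIs) against 422 CPM (400 to 445, 1372 UMIs), 2.46-fold higher, and within cluster 0 at 172 against 490 CPM, giving a log2 ratio of 1.51. In endocardial-like cells it was at 274 CPM (250 to 299) against 601 CPM (577 to 625), 2.19-fold higher. Within endocardial cluster 3, however, Plk2 stood at 270 CPM (247 to 296) against 295 CPM (261 to 332), with overlapping intervals, and in cluster 8 at 693 CPM (664 to 722). Its ratio was 0.26 in cardiomyocyte-like, 0.40 in fibroblast-like and -0.25 in macrophage-like cells. With estimated free RNA taken off the ratio of Plk2 was -6.47 in fibroblast-like and -1.96 in macrophage-like cells, so its level there lay near that of the free RNA and gives no direction.

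Plk3, a related kinase, had 217 UMIs (13.2 CPM) against 634 UMIs (34.2 CPM). It was higher in macrophage-like cells, at 20.2 CPM (12.5 to 30.8, 21 UMIs) against 72.6 CPM (60.3 to 86.8, 121 UMIs), giving a log2 ratio of 1.82, and in fibroblast-like cells, at 9.33 CPM (6.42 to 13.1) against 27.0 CPM (22.4 to 32.4), a ratio of 1.52. The ratio of Plk3 was 0.51 in endocardial-like, 0.87 in vascular endothelial-like and -0.27 in cardiomyocyte-like cells. An exon of Plk3 overlaps Tctex1d4 on the opposite strand, and whether counting used the strand is not given in the sources used here. Btg2, an antiproliferative protein that promotes decay of mRNA, had 1252 UMIs (76.2 CPM) against 1490 UMIs (80.4 CPM). In cardiomyocyte-like cells Btg2 was at 64.8 CPM (58.7 to 71.4) against 81.7 CPM (70.4 to 94.3), a ratio of 0.34 (0.08 to 0.59), and without the mitochondria-rich cluster the ratio was 0.13. Endocardial-like cells were at 74.4 CPM (62.4 to 88) against 45.4 CPM (39.1 to 52.5), a ratio of -0.71, and -0.11 within cluster 3. In vascular endothelial-like cells Btg2 was at 111 against 127 CPM, in macrophage-like cells at 105 against 91.3 CPM and in fibroblast-like cells at 52.9 against 52.0 CPM.

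The other 4 genes of this group were sparse. Gadd45a, a growth arrest protein, had 107 UMIs (6.51 CPM) against 211 UMIs (11.4 CPM), and its ratio of 2.04 in macrophage-like cells rests on 4 and 29 UMIs. In cardiomyocyte-like cells the ratio of Gadd45a was 0.05, and -0.55 without the mitochondria-rich cluster. Zmat3, an RNA-binding protein that acts in splicing, had 244 UMIs (14.9 CPM) against 395 UMIs (21.3 CPM) and was past 2-fold in vascular endothelial-like cells, at 7.0 CPM (4.08 to 11.2) against 20.6 CPM (16.0 to 26.2), a ratio of 1.53. In macrophage-like cells the ratio of Zmat3 was -0.77. Psrc1, a protein of the spindle, had 10 UMIs (0.609 CPM) against 48 UMIs (2.59 CPM), and was measured in fibroblast-like cells alone, with 4 and 24 UMIs. Ckap2, another spindle protein, had 50 UMIs (3.04 CPM) against 107 UMIs (5.78 CPM). Its ratio was 1.47 in fibroblast-like cells (11 and 39 UMIs) and 1.80 in macrophage-like cells (3 and 19 UMIs). In endocardial-like and vascular endothelial-like cells the ratio of Ckap2 was -0.65 and -0.02. The fibroblast-like ratio was 0.24 when clusters were made at resolution 2 and 0.36 in cells of 500 to 1500 UMIs.

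The 3 sestrins, stress proteins that restrain the mTOR growth pathway, went in different directions. Sesn3 was lower in all 5 classes, and by at least 1.5-fold in each. It had 786 UMIs (47.9 CPM) against 581 UMIs (31.4 CPM) over all kept cells. In fibroblast-like cells Sesn3 was at 70.4 CPM (61.9 to 79.7) against 34.8 CPM (29.5 to 40.7), giving a log2 ratio of -1.02 (-1.32 to -0.72), and in endocardial-like cells at 73.3 CPM (61.4 to 86.8) against 37.8 CPM (32.0 to 44.3), a ratio of -0.96 (-1.30 to -0.61). In macrophage-like cells it was at 32.7 against 13.8 CPM, in cardiomyocyte-like cells at 26.5 against 16.2 CPM and in vascular endothelial-like cells at 31.3 against 20.6 CPM. Within endocardial cluster 3 the ratio of Sesn3 was -1.09, and in cardiomyocyte-like cells of 500 to 1500 UMIs it was 0.05. In fibroblast-like cells the ratio was -1.70 in cluster 1 (243 and 5 UMIs) and -0.22 in cluster 4 (6 and 148 UMIs).

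Sesn1 was the target with the most UMIs in cardiomyocyte-like cells and the single sestrin that was higher there. It had 3292 UMIs (200 CPM) against 2665 UMIs (144 CPM) over all kept cells. In cardiomyocyte-like cells Sesn1 was at 268 CPM (255 to 281, 1699 UMIs) against 335 CPM (311 to 359, 766 UMIs), giving a log2 ratio of 0.32 (0.20 to 0.44). In the other classes it was lower, at 142 CPM (128 to 158) against 91.4 CPM (81.3 to 102) in vascular endothelial-like cells and at 166 CPM (148 to 186) against 100 CPM (90.5 to 110) in endocardial-like cells, with ratios of -0.64 and -0.73. The difference was smaller in macrophage-like cells, at 230 against 171 CPM, and in fibroblast-like cells, at 138 against 116 CPM, with ratios of -0.43 and -0.25. Within the clusters that both libraries held, Sesn1 was at -0.54 in vascular cluster 0 and -0.53 in endocardial cluster 3. Without the mitochondria-rich cluster the cardiomyocyte-like ratio was 0.48, and cluster 15 of the library labelled p53 knockout was at 419 CPM (386 to 454), whereas clusters 2 and 6 were at 251 against 295 CPM and 310 against 349 CPM. The intervals overlapped in both of these clusters. In the mitochondria-rich cluster 7 Sesn1 was at 129 CPM (105 to 157) against 129 CPM (101 to 163).

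Sesn2, a sestrin induced by amino acid shortage as well as by p53, was rare, with 70 UMIs (4.26 CPM) against 181 UMIs (9.77 CPM). It was past 2-fold higher in fibroblast-like cells (10 and 46 UMIs, 2.83 against 10.5 CPM, a log2 ratio of 1.83), endocardial-like cells (8 and 42 UMIs, 4.41 against 10.4 CPM, 1.16) and macrophage-like cells (10 and 39 UMIs, 1.23). In vascular endothelial-like cells Sesn2 had 15 and 20 UMIs, and its ratio was -0.02. In cardiomyocyte-like cells Sesn2 was lower, with 19 and 4 UMIs (3.0 against 1.75 CPM), a ratio of -0.65 (-2.79 to 0.81), and without the mitochondria-rich cluster 13 UMIs stood against 0.

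Ddit4, a further inhibitor of mTOR signalling that responds to stress and glucocorticoids, was higher in all 5 classes. It had 750 UMIs (45.7 CPM) against 2540 UMIs (137 CPM) over all kept cells. In fibroblast-like cells Ddit4 was at 27.4 CPM (22.2 to 33.5) against 105 CPM (95.2 to 115), 3.80-fold higher, and in vascular endothelial-like cells at 89.0 CPM (77.5 to 102) against 335 CPM (316 to 356), 3.76-fold higher. Macrophage-like cells were at 26.9 CPM (17.9 to 38.9) against 86.5 CPM (72.9 to 102), giving a log2 ratio of 1.66, and cardiomyocyte-like cells at 32.2 against 56.4 CPM, a ratio of 0.81. Endocardial-like cells as a whole gave 84.9 CPM (72.0 to 99.4) against 105 CPM (95.7 to 116), a ratio of 0.31. Within cluster 3 the ratio of Ddit4 was 1.4, with 85.5 CPM (72.5 to 100) against 225 CPM (196 to 258), while cluster 8 stood at 69.4 CPM (60.4 to 79.3). The difference was present in both fibroblast clusters, with ratios of 2.26 in cluster 1 and 1.55 in cluster 4.

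**Figure D5:**
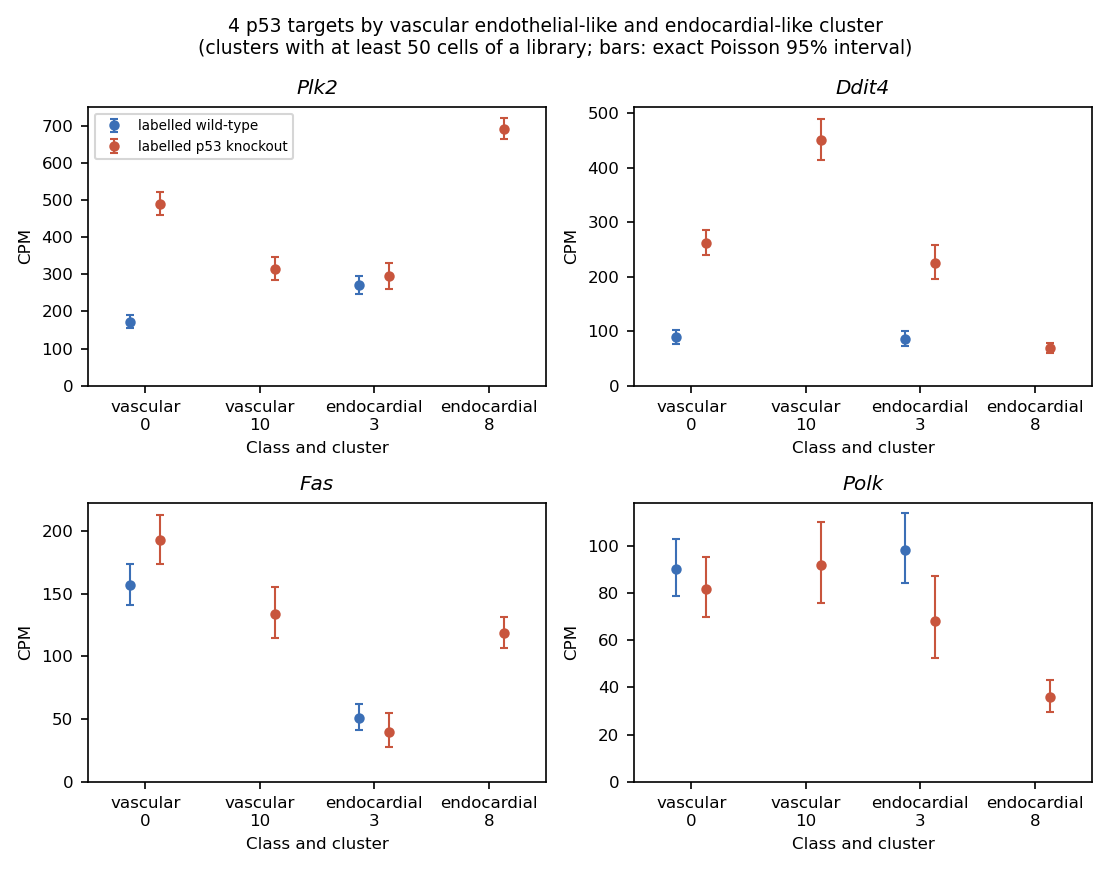
Level in CPM of 4 targets by cluster of the vascular endothelial-like (0 and 10) and endocardial-like (3 and 8) classes; clusters 8 and 10 are drawn for the library labelled p53 knockout alone, and bars are exact Poisson 95% intervals. In cluster 3 the intervals of Plk2, Fas and Polk overlap between libraries, and Ddit4 is higher in red.

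The remaining 4 genes of this group differed among themselves. Gdf15 reached the minimum of 20 UMIs in 3 classes, in each through the library labelled p53 knockout. Its higher ratios there are therefore not independent of that filter. Tigar, which lowers glycolytic flux, had 478 UMIs (29.1 CPM) against 310 UMIs (16.7 CPM) over all kept cells. It was most abundant in cardiomyocyte-like cells, where it stood at 54.1 CPM (48.5 to 60.2) against 52.0 CPM (43.1 to 62.2), and its ratio was -0.76 in vascular endothelial-like cells and between -0.37 and -0.01 in the other 3 classes. These small ratios turned under other processing, to 1.95 in fibroblast-like and 0.74 in macrophage-like cells with estimated free RNA taken off. Ephx1, the microsomal epoxide hydrolase, had 1727 UMIs (105 CPM) against 2012 UMIs (109 CPM). In endocardial-like cells Ephx1 was at 259 CPM (236 to 283) against 135 CPM (124 to 147), giving a log2 ratio of -0.94, and -0.39 within cluster 3. In cardiomyocyte-like cells it was at 38.2 CPM (33.5 to 43.3) against 19.2 CPM (14 to 25.8), a ratio of -0.98, while fibroblast-like cells were at 133 against 147 CPM and vascular endothelial-like cells at 119 against 102 CPM. Gdf15, a cytokine secreted under stress, had 22 UMIs (1.34 CPM) against 92 UMIs (4.97 CPM). In endocardial-like cells 0 UMIs of Gdf15 stood against 20 UMIs, at least 2.99-fold higher when 3 UMIs are taken as the limit that 0 counts allow. Of these, 18 UMIs lay in cluster 8, which the library labelled wild-type hardly held. Within endocardial cluster 3 Gdf15 had 0 and 2 UMIs. Its ratio was 2.81 in cardiomyocyte-like cells (8 and 21 UMIs) and 2.34 in macrophage-like cells (4 and 36 UMIs). In cells of 500 to 1500 UMIs these ratios of Gdf15 were 0.11 and 0.57. The value of 0.11 was also that of Eda2r and Gadd45a in the same cells, so it rests on few UMIs and gives no direction. Fibroblast-like cells held 3 and 11 UMIs of Gdf15 and vascular endothelial-like cells 4 and 1. Dcxr, a carbonyl reductase, had 63 UMIs (3.84 CPM) against 60 UMIs (3.24 CPM) and was measured in 3 classes, with ratios from -0.85 to 0.39.

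The 5 genes of DNA repair were mostly lower outside macrophage-like cells, and are too few to weigh against the share of all genes that were lower. In cardiomyocyte-like, fibroblast-like and vascular endothelial-like cells 4 of the 5 were lower, in endocardial-like cells all 5 and in macrophage-like cells 2, while 66.5%, 57.8%, 56.1%, 57.3% and 52.7% of all genes were lower in the same classes. Rrm2b, the p53-induced subunit of ribonucleotide reductase, had 734 UMIs (44.7 CPM) against 655 UMIs (35.4 CPM) and was lower in all 5 classes. In macrophage-like cells Rrm2b was at 65.3 CPM (50.7 to 82.8) against 31.2 CPM (23.3 to 40.9), giving a log2 ratio of -1.06, in cardiomyocyte-like cells at 37.9 CPM (33.2 to 43.0) against 22.7 CPM (17 to 29.8) and in fibroblast-like cells at 48.1 CPM (41.1 to 55.9) against 31.1 CPM (26.1 to 36.8). Within fibroblast cluster 1, however, Rrm2b was at 47.9 CPM (40.8 to 55.9) against 52.5 CPM (28.0 to 89.9, 13 UMIs). Within fibroblast cluster 4 it was at 51.1 CPM (22.1 to 101, 8 UMIs) against 29.9 CPM (24.8 to 35.6). In vascular endothelial-like and endocardial-like cells the ratios of Rrm2b were -0.13 and -0.38. Polk, a polymerase that copies past damaged bases, had 1010 UMIs (61.5 CPM) against 950 UMIs (51.3 CPM). Its largest difference was in endocardial-like cells, at 98.6 CPM (84.7 to 114) against 43.5 CPM (37.3 to 50.4), 2.27-fold lower, but within cluster 3 Polk was at 98.4 CPM (84.4 to 114) against 68.3 CPM (52.6 to 87.3), a ratio of -0.52 with overlapping intervals. In macrophage-like cells Polk was at 89.3 against 68.4 CPM, and in vascular endothelial-like cells at 92.3 against 85.6 CPM.

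Xpc, Ddb2 and Ercc5 act in nucleotide excision repair, where Ddb2 and Xpc find damage and Ercc5 cuts the strand. Xpc had 583 UMIs (35.5 CPM) against 500 UMIs (27.0 CPM). It was lower in fibroblast-like cells, at 44.7 CPM (38 to 52.2) against 24.3 CPM (19.9 to 29.4), giving a log2 ratio of -0.87, and in cardiomyocyte-like cells, at 32.0 CPM (27.8 to 36.8) against 17 CPM (12.1 to 23.3), a ratio of -0.90. Within fibroblast cluster 1 Xpc was at 45.6 CPM (38.6 to 53.3) against 28.3 CPM (11.4 to 58.3, 7 UMIs). Within fibroblast cluster 4 it was at 25.5 CPM (6.96 to 65.4, 4 UMIs) against 24.1 CPM (19.6 to 29.3), and the intervals overlapped in each cluster. In macrophage-like cells the ratio of Xpc was 0.44 (-0.25 to 1.20). Over the whole endocardial-like and vascular endothelial-like classes it was -0.21 and -0.39, and within the shared clusters it was larger, at 35.8 against 11.7 CPM (-1.55, -2.68 to -0.67) in endocardial cluster 3 and at 35.3 against 18.5 CPM (-0.92, -1.53 to -0.35) in vascular cluster 0. Ddb2 had 535 UMIs (32.6 CPM) against 625 UMIs (33.7 CPM), with a ratio of -0.69 in vascular endothelial-like cells and between -0.06 and 0.23 in the other 4 classes. Ercc5 had 1002 UMIs (61.0 CPM) against 991 UMIs (53.5 CPM), with ratios from -0.52 in endocardial-like cells to 0.06 in vascular endothelial-like cells. Exons of Ddb2 overlap Acp2, those of Rrm2b overlap Gm49085, those of Tigar overlap Platr31, those of Gadd45a overlap E230016M11Rik and those of Ei24 overlap Gm26787, each on the opposite strand.

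The share of cells with at least 1 UMI was compared after each cell was thinned to 500 UMIs, because the libraries differed in depth. Plk2 was detected in 6.36% of thinned vascular endothelial-like cells (95% Clopper-Pearson interval 5.47 to 7.34) against 16.7% (15.1 to 18.5), and in 11.1% against 33.6% of the unthinned cells. In fibroblast-like cells, where free RNA was estimated at 27.4% and 17.9% of UMIs, Plk2 was detected in 1.08% against 1.52%, which is read as background and not as a difference. Perp was detected in 1.21% (0.928 to 1.55) of thinned cardiomyocyte-like cells against 3.61% (2.48 to 5.06), and in 2.54% against 12.98% before thinning. In fibroblast-like cells, with a median of 987 and 1754 UMIs, the thinned shares of Perp were 0.339% and 0.475%. Ddit4 was detected in 1.36% (0.988 to 1.82) of thinned fibroblast-like cells against 4.37% (3.54 to 5.34), and in 2.56% against 15.3% before thinning. Its thinned share in cardiomyocyte-like cells, with a median of 969 and 1736.5 UMIs, was 1.27% against 2.37%.

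The smaller classes held few UMIs of most targets. Sesn3 was lower in pericyte-like cells (67 and 21 UMIs, a log2 ratio of -0.78), in B-like cells (27 and 60 UMIs, -1.19) and in mesothelial-like cells (16 and 40 UMIs, -1.01). Ccng1 was lower in pericyte-like cells (44 and 15 UMIs, -0.65) and mesothelial-like cells (17 and 74 UMIs, -0.21). Sesn1 was lower in pericyte-like, lymphatic endothelial-like and mesothelial-like cells, at -0.45, -0.56 and -1.19, and higher in B-like cells, at 0.34. Ddit4 was higher in lymphatic endothelial-like cells (29 and 176 UMIs, 0.89), and Btg2 lower there (33 and 34 UMIs, -1.65).

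The best known p53 target outside this set, the cell cycle inhibitor Cdkn1a (p21), was higher in all 5 classes, from 0.65 in endocardial-like cells to 1.68 in vascular endothelial-like cells, where it stood at 46.6 CPM (38.4 to 56.0) against 150 CPM (137 to 164). In the mitochondria-rich cardiomyocyte-like cluster 7 Cdkn1a was at 13.9 CPM (6.96 to 24.9) against 47.9 CPM (31.5 to 69.6). Without that cluster the cardiomyocyte-like cells were at 11.0 against 13.9 CPM, a ratio of 0.36 (-0.41 to 1.04). Mdm2, both a target and the inhibitor of p53, was at 92.3 against 101 CPM over all kept cells, with ratios from -0.31 in cardiomyocyte-like cells to 0.58 in macrophage-like cells. A list of 22 further p53 targets, which includes Cdkn1a, was counted in the same way. In cardiomyocyte-like cells 4 of 18 measured were past 2-fold higher and 0 lower, and in fibroblast-like cells 3 and 0 of 20. Vascular endothelial-like cells had 7 and 1 of 19, endocardial-like cells 3 and 1 of 19, and macrophage-like cells 5 and 4 of 18. Over all genes the shares past 2-fold higher and lower were 4.35% and 15.6%, 6.85% and 11.5%, 6.16% and 12.3%, 6.55% and 10.9%, and 9.24% and 11.9% in the same order of classes. Of 19 genes for p53 and its regulators, 0 or 1 were past 2-fold higher and 0 to 2 past 2-fold lower in each class. Atm, the kinase that signals DNA breaks to p53, was lower in all 5 classes, at 49.1 against 25.8 CPM in cardiomyocyte-like cells and 61.8 against 34.8 CPM in vascular endothelial-like cells.

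Genes driven by other stress pathways also differed between the libraries. Of 7 glucocorticoid response genes, 6 were higher in vascular endothelial-like cells, 5 of them past 2-fold, with a median log2 ratio of 1.08, and all 7 were higher in fibroblast-like cells, with a median of 0.66. In the cardiomyocyte-like, endocardial-like and macrophage-like classes 6, 5 and 5 of the 7 were higher, 0, 3 and 2 of them past 2-fold, with medians of 0.35, 0.57 and 0.27. Of all genes 33.5%, 42.7% and 47.3% were higher in these 3 classes, 42.2% in fibroblast-like and 43.9% in vascular endothelial-like cells. Fkbp5, a chaperone induced by glucocorticoids, was at 67.2 against 320 CPM in vascular endothelial-like cells and at 162 against 575 CPM in macrophage-like cells. Immediate early and dissociation response genes were higher for 12 of 16 measured in cardiomyocyte-like cells, 11 of 13 in macrophage-like, 10 of 16 in endocardial-like, 13 of 16 in fibroblast-like and 14 of 15 in vascular endothelial-like cells. Integrated stress response genes were higher for 5 of 9, 6 of 7, 7 of 9, 6 of 10 and 6 of 9 measured genes in the same order. FOXO response genes were lower for 5 of 9, 4 of 9, 5 of 9, 4 of 9 and 6 of 9, against 66.5%, 52.7%, 57.3%, 57.8% and 56.1% of all genes. Whether these pathways, the depth of the libraries, sex or free RNA account for any target's difference was not tested.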

How the data were processed

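The authors deposited whole-number UMI counts per gene and cell barcode for both libraries. The submitters' processing notes name Cell Ranger, Seurat and mm10, with no versions; the labels' protocols name a 3' single-cell kit, without stating if nuclei or whole cells were used. The targets, roles and other gene lists were chosen with earlier results of these data known. Before filtering, the library labelled wild-type held 18897913 UMIs in 16060 barcodes and the other 20918824 in 10118. Cells with at least 200 genes and at most 50% mitochondrial UMIs were kept, which left 16047 and 10106. Scrublet's automatic threshold marked 0 cells, so the 8% with the highest doublet scores were removed (1283 and 808). Clusters (scanpy 1.11.5, leidenalg 0.10.2, 2000 variable genes, 30 components, resolution 1) were made without the 35 targets and without mitochondrial, ribosomal, haemoglobin and sex-linked genes. Classes were named from marker lists; the naming thresholds (at least 3 markers 2-fold higher, with 50 CPM added) and unscaled components were chosen after the clusters were seen. The macrophage-like cluster was not separated from neutrophils or dendritic cells, and the B-like cluster also held T cell genes. UMIs were summed per class and library, and CPM are scaled to 1000000 nuclear-encoded UMIs. Gene positions and overlaps are from GENCODE vM21 (mm10). All 35 targets are named with their values over all kept cells. In each of the 5 largest classes, the 3 most positive and 3 most negative ratios among targets with at least 50 UMIs and the 4 targets with most UMIs are given in full, and targets past 1.5-fold the same way in at least 3 classes or with opposite intervals are followed through all 5, with UMIs alone where a class held too few. The ratio and its interval were tested on simulated counts.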

Additional observations from a re-analysis of the deposited data

Results flagged for a closer look

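For 3 targets the counting interval of the log2 ratio lay above 0 in 1 class and below 0 in another. The difference between classes was not tested, because each group has 1 library. Fas stood at 0.94 in endocardial-like cells and -1.15 in cardiomyocyte-like cells, and within the endocardial cluster that both libraries held it was -0.35 (-0.96 to 0.20), an interval that spans 0. Btg2 stood at 0.34 in cardiomyocyte-like cells and -0.71 in endocardial-like cells, and at 0.13 and -0.11 without the mitochondria-rich cluster and within the shared endocardial cluster. Sesn1 stood at 0.32 in cardiomyocyte-like cells, -0.25 in fibroblast-like cells, -0.64 in vascular endothelial-like cells, -0.73 in endocardial-like cells and -0.43 in macrophage-like cells. Within the shared vascular and endocardial clusters Sesn1 was at -0.54 and -0.53, and without the mitochondria-rich cluster at 0.48 in cardiomyocyte-like cells. By cardiomyocyte-like cluster, however, the intervals of the 2 libraries overlapped in clusters 2, 6 and 7. The highest level, 419 CPM, was in cluster 15, of which the library labelled wild-type held 2 cells.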

How the results depend on the processing

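No paired analysis was possible because each group has 1 library and so the groups share fewer than 2 replicate numbers; leaving out a replicate was not possible for the same reason. The number of targets past 2-fold in cardiomyocyte-like cells, 5 as reported, was 8 without a filter on UMIs, 2 with at least 100 UMIs, 9 with at most 10% mitochondrial UMIs per cell and 10 without the mitochondria-rich cluster. With at least 100 UMIs, which leaves fewer targets, it was 4 in macrophage-like, 2 in endocardial-like, 4 in fibroblast-like and 4 in vascular endothelial-like cells, from 10, 6, 7 and 7. With cells of 500 to 1500 UMIs alone it was 3 in fibroblast-like and 5 in macrophage-like cells, and with cells thinned to 500 UMIs it was 4 in macrophage-like cells. The median log2 ratio of targets in fibroblast-like cells, 0.22 as reported, was -0.087 in cells of 500 to 1500 UMIs and -0.16 after thinning, and the cause was not tested. Among the 159 ratios of a target in a class, 54 changed sign under at least 1 alternative, 12 of the 77 past 1.5-fold and 2 of the 35 past 2-fold. The 2 were Eda2r in cardiomyocyte-like cells, at 0.11, and Psrc1 in fibroblast-like cells, at -0.16, both in cells of 500 to 1500 UMIs. Gadd45a and Gdf15 had the same value as Eda2r there, and Perp and Gadd45a the same as Psrc1. Such equal values come from few UMIs, where the 0.5 UMI added to each sum weighs most, so they give no direction. Of the values of single ratios under an alternative, 112 moved, 2 were counted as reversed and 1602 did neither. The offset of median-of-ratios scaling was -0.11 in endocardial-like cells, so ratios there lay higher by that amount, and smaller in the other classes. Of the alternatives to the counts and medians, 53 of 64 counts stayed within 1.5 times and 62 of 64 medians within their spread. The restrictions to the shared endothelial clusters and to macrophage-like cells with fewer than 2 UMIs of neutrophil markers were chosen after seeing the data. Within the shared clusters 7 of 30 vascular and 8 of 28 endocardial targets were past 2-fold, against 17.5% and 15.3% of all genes.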
